A study of Mus musculus with 95 samples.

Results

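PCGF1 was mapped by chromatin immunoprecipitation and sequencing (ChIP-seq) in E14 cells, a line of mouse embryonic stem cells, that lacked other members of its protein family. The lists described here are the 5 deposited lists made with the Pcgf1 antibody in wild-type, Pcgf2/4-/-, Pcgf3/5-/-, Pcgf6-/- and Pcgf1-/- cells, out of 80 peak lists and 95 samples in the series. They were chosen by their antibody and genotype labels. Pcgf1-/- and Pcgf6-/- lack 1 gene each, Pcgf2/4-/- lacks Pcgf2 and the gene of PCGF4 (Bmi1), and Pcgf3/5-/- lacks Pcgf3 and Pcgf5. The Pcgf1-/- list shows what the antibody recovers where its target is missing. Per the labels' protocols, the knockouts are clones made by transient Cas9 editing, the double knockouts were edited from single knockout clones, and clones were screened by PCR and Western blotting. All lines, wild-type included, were grown on gelatin in serum-containing medium with LIF and with both GSK3β and MEK1/2 inhibited by small molecules. For PCGF1 the chromatin was crosslinked with EGS, a protein-protein crosslinker, before formaldehyde, and the labels give a fly chromatin spike-in for histone marks only. Each line was 1 library, so no difference between lines could be tested, and each knockout is known here from a single clone.

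PCGF proteins are the subunits that tell the forms of Polycomb repressive complex 1 apart. Each pairs with RING1A or RING1B, the enzymes that place ubiquitin on histone H2A (H2AK119Ub1). PCGF1 belongs to a form that also holds KDM2B, which binds unmethylated CpG dinucleotides, and BCOR. PCGF2 and PCGF4 form the complexes that can hold CBX proteins, which read H3K27m3, the methyl mark placed by the SUZ12-containing Polycomb repressive complex 2. PCGF6 acts with MGA and E2F6 and is known in stem cells for the promoters of germline genes.

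Examples of the sites are shown as sequence. Below are 200 bases of NCBIM37, plus strand, around the PCGF1 summit of 1 region for each of 4 combinations of lists, with CpG dinucleotides in capitals. The Igf2 region was called in all 4 lists other than Pcgf1-/-, with summit window chr7:149850163-149850362 inside an intron of Igf2, a fetal growth factor gene. The Gyltl1b region was called in wild-type alone (chr2:92210547-92210746, non-coding exon). The Prdm16 region was called in all 3 knockouts and not in wild-type (chr4:154011189-154011388, upstream of the gene of a zinc-finger regulator). The 6430527G18Rik region was called in Pcgf6-/- alone (chr12:88223853-88224052, coding exon).
Igf2: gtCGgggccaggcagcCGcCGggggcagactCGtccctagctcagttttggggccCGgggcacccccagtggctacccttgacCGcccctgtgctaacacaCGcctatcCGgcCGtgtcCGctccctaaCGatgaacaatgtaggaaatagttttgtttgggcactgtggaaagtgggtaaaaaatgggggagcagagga
Gyltl1b: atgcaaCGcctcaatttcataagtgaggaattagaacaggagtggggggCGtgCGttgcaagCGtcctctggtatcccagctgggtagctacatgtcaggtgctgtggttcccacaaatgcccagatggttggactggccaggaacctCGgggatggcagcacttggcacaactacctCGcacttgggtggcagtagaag
Prdm16: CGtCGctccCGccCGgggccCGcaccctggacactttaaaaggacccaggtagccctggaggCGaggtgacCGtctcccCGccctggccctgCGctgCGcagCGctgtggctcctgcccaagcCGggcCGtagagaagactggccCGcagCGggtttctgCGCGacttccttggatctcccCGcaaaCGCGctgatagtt
6430527G18Rik: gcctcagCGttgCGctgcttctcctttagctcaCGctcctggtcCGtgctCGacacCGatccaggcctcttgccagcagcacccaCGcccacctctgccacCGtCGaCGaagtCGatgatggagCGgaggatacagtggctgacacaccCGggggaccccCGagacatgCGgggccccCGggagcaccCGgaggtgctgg
The windows of Prdm16 and 6430527G18Rik held 20 and 17 CpG dinucleotides. Those of Igf2 and Gyltl1b held 11 and 6. Single windows do not stand for their combinations, whose medians are given below.

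The PCGF1 list grew where PCGF2/4 or PCGF6 was missing and shrank where PCGF3/5 was missing. It held 736 peaks in wild-type, 1845 in Pcgf2/4-/-, 3228 in Pcgf6-/-, 214 in Pcgf3/5-/- and 15 in Pcgf1-/-. The peaks covered 377 kb in wild-type, 1594 kb in Pcgf2/4-/-, 2781 kb in Pcgf6-/- and 128 kb in Pcgf3/5-/-. Median peak width was 434, 694, 738 and 502 bp in these 4 lists. The median fold enrichment, the peak caller's ratio of signal over background as the authors deposited it, was 7.09, 7.51, 5.76 and 7.05. The median −log10 p was 11.3, 12.9, 12.2 and 11.5. The list of Pcgf6-/- therefore had the lowest median fold of the 4 but not the lowest median −log10 p. The number of peaks called depends on sequencing depth and on the yield of the immunoprecipitation, neither of which is given in the sources used here. The part of depth in these list sizes was not tested.

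RING1B lists of the same lines did not share this order and held 5454 to 5696 peaks in all 5 lines. They covered unlike lengths, 7.47 Mb in wild-type, 4.78 in Pcgf2/4-/-, 6.83 in Pcgf3/5-/- and 9.14 in Pcgf6-/-. PCGF2 lists held 4472 peaks in wild-type, 7739 in Pcgf6-/-, 3210 in Pcgf3/5-/- and 1050 in Pcgf2/4-/-, which lacks the protein. PCGF6 lists held 1868 peaks in wild-type, 12842 in Pcgf2/4-/-, 1571 in Pcgf3/5-/- and 1042 in Pcgf6-/-, which lacks it. Apart from the line without the target, these lists had the order of the PCGF1 lists, shorter than wild-type in Pcgf3/5-/- and longer in the other. SUZ12 lists held 6473 peaks in wild-type, 8077 in Pcgf2/4-/-, 6365 in Pcgf3/5-/- and 6704 in Pcgf6-/-. List length differed between lines for these antibodies too. Without its target the PCGF1 antibody gave 15 peaks, far fewer than those of PCGF2 and PCGF6, and the PCGF3 antibody gave 21 in Pcgf3/5-/-. PCGF3 lists held 223 peaks in wild-type, 612 in Pcgf6-/- and 117 in Pcgf2/4-/-. The last was shorter than wild-type, unlike the PCGF1 and PCGF6 lists of that line.

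The Pcgf1-/- list was almost a single place. Of its 15 peaks, 13 lay within 29.7 kb of chromosome X (166407795 to 166437475) over Mid1, which encodes a ubiquitin ligase, and the neighbouring Gm17379 and Gm15247. The other 2 lay on chromosome 7 nearest to 4933406J10Rik. The same stretch of X held 11 peaks of the wild-type list, 13 of Pcgf2/4-/-, 18 of Pcgf3/5-/- and 5 of Pcgf6-/-, with folds up to 17.9. These peaks were 1.49% of the wild-type list and 8.41% of the Pcgf3/5-/- list. Folds there reached 11.8 without PCGF1, and what PCGF1 adds to them was not tested.

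**Figure D1:**
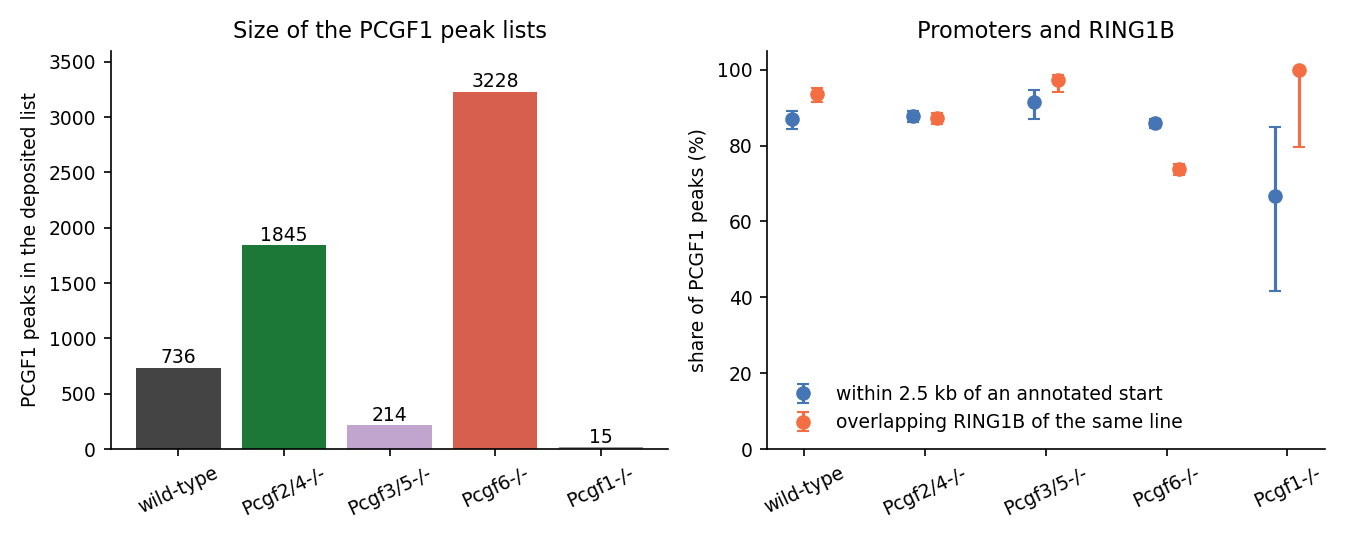
Left, bars give the number of PCGF1 peaks in each deposited list (1 library per line), from 15 in Pcgf1-/- to 3228 in Pcgf6-/-. Right, points give the percentage of PCGF1 peaks within 2.5 kb of an annotated start (blue) and overlapping a RING1B peak of the same line (orange), with 95% Wilson intervals over peaks. RING1B overlap was lower in Pcgf6-/- than in the other lines.

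Most wild-type PCGF1 sites were called again when PCGF2/4 or PCGF6 was missing. Of the 736 wild-type peaks, 634 (86.1%, 95% Wilson interval 83.5 to 88.5) shared at least 1 bp with a Pcgf6-/- peak and 577 (78.4%, 75.3 to 81.2) with a Pcgf2/4-/- peak. Only 139 (18.9%, 16.2 to 21.9) shared a base with a Pcgf3/5-/- peak and 10 (1.36%) with a Pcgf1-/- peak. Intervals cover counting error over peaks and not the spread between cultures. In the other direction, 62.1% of Pcgf3/5-/- peaks, 28.7% of Pcgf2/4-/- peaks and 18.2% of Pcgf6-/- peaks overlapped a wild-type peak. Pcgf3/5-/- peaks were also found in the longer lists, 87.4% of them in Pcgf2/4-/- and 88.3% in Pcgf6-/-.

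List length bears on every one of these shares. Among only the 214 peaks of highest −log10 p in each list, as many as the whole Pcgf3/5-/- list, 90.2% of wild-type peaks overlapped a full Pcgf2/4-/- list's peak, 91.1% a Pcgf6-/- peak and 34.1% a Pcgf3/5-/- peak. Of the strongest 214, 68.2% in Pcgf2/4-/- and 60.7% in Pcgf6-/- overlapped wild-type. Wild-type peaks shared with Pcgf3/5-/- had a median fold of 7.76 and a median −log10 p of 13.1, against 7.09 and 11.3 for those not shared. The Pcgf3/5-/- list thus held the stronger part of the wild-type list more often than the weaker part.

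Merging the 4 lists gave 3618 regions, of which 663 included a wild-type peak. The Pcgf6-/- list alone held 1714 of them (47.4%), Pcgf2/4-/- and Pcgf6-/- together 794, and Pcgf2/4-/- alone 384. All 4 lists shared 126 regions, and wild-type, Pcgf2/4-/- and Pcgf6-/- shared 352. Wild-type alone held 51 regions, Pcgf3/5-/- alone 10, and all 3 knockouts without wild-type 34. Regions in more lists were wider, with a median of 1792 bp for all 4 lists against 280 bp for wild-type alone, and a wider region has more room to overlap.

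**Figure D2:**
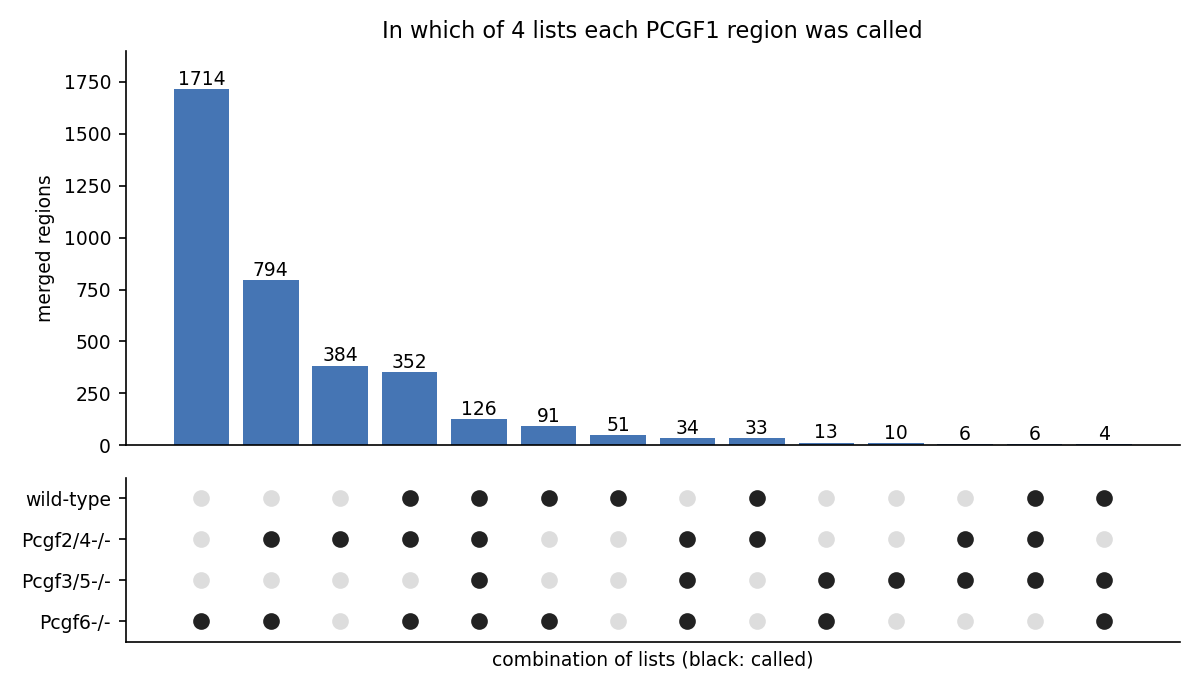
Bars give the number of merged PCGF1 regions (vertical axis) for each combination of the 4 lists, and black dots below each bar mark the lists that called it. The Pcgf6-/- list alone held 1714 of 3618 regions and all 4 lists shared 126.

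Regions missing from the wild-type list were mostly PCGF1 sites of another line. Ring1a-/-_Ring1bfl cells, which lack Ring1a and carry a floxed Ring1b with an inducible Cre, gave 12735 PCGF1 peaks. That list held a peak at 98.4% of wild-type peaks, 98.3% of Pcgf2/4-/- peaks, 96.6% of Pcgf6-/- peaks and 95.8% of Pcgf3/5-/- peaks. It was not used to sort the regions. Its median PCGF1 fold was 13.2 at regions called in all 4 lists, 11.5 in wild-type and 2 knockouts, and 9.78 in wild-type and 1 knockout. It was 7.96 at regions of wild-type alone, 8.84 of Pcgf2/4-/- alone and 8.18 of Pcgf6-/- alone. Regions called in fewer lists were therefore also weaker sites in a line outside the comparison. A list of that size also overlaps more by its coverage, 10152 kb, than a short one.

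**Figure D3:**
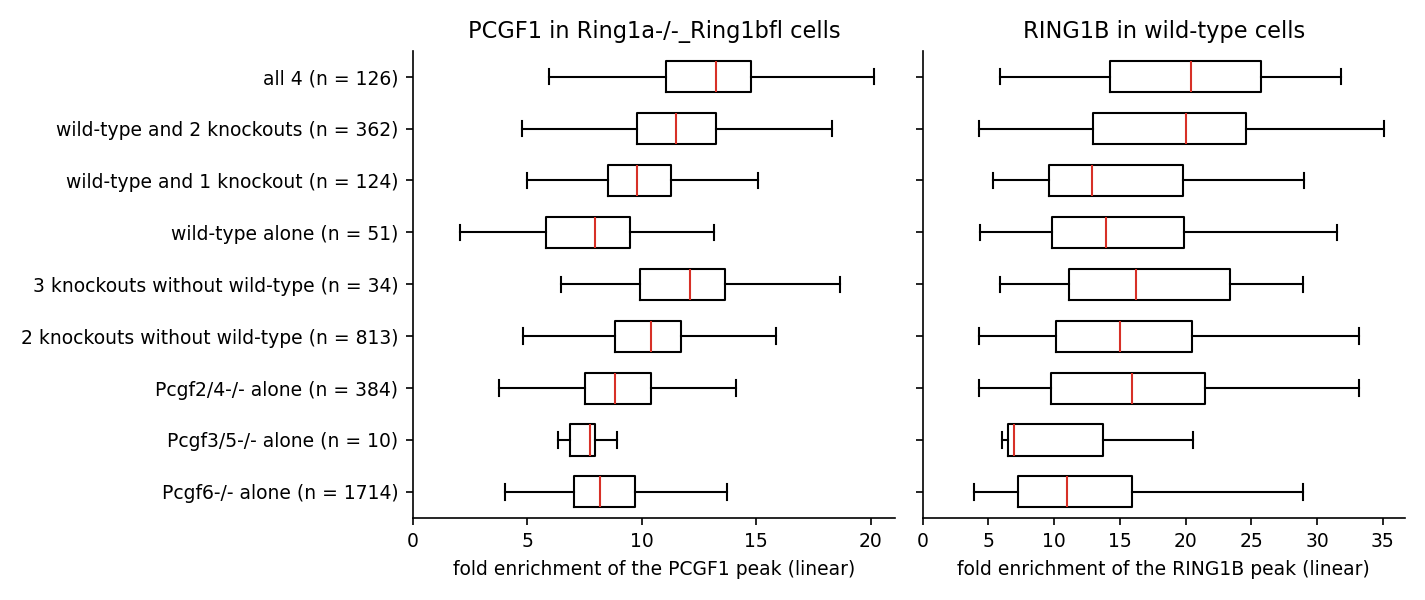
Horizontal boxes (median in red, quartiles, whiskers to 1.5 times the quartile range) give fold enrichment, linear scale, of the PCGF1 peak in Ring1a-/-_Ring1bfl cells (left) and of the RING1B peak in wild-type cells (right) for regions grouped by the lists that called them. n counts all regions of a group, and boxes use those with such a peak. Median PCGF1 fold fell from 13.2 in all 4 lists to 7.96 in wild-type alone.

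PCGF1 sat just downstream of gene starts in every line. Within 2.5 kb of an annotated transcript start lay 87.0% of wild-type peaks (84.3 to 89.2), 87.7% of Pcgf2/4-/- peaks, 91.6% of Pcgf3/5-/- peaks and 85.8% of Pcgf6-/- peaks. For these promoter peaks, the summit was set against the nearest start within 2.5 kb of the peak, protein-coding starts being taken first. The median summit was 346 bp downstream of that start in wild-type, 298 bp in Pcgf2/4-/-, 406 bp in Pcgf3/5-/- and 290 bp in Pcgf6-/-. Between 71.3% and 74.5% of promoter summits lay on the transcribed side. In wild-type, 31.1% of summits fell in coding exons and 35.5% in introns. The 10 peaks at promoters of the Pcgf1-/- list had a median summit 77.5 bp upstream.

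In 300-bp windows on the summits of all 3618 regions, the median GC content was 63.7% and the median number of CpG dinucleotides 21, against 57.3% and 11 at 69971 starts of protein-coding transcripts. Wild-type RING1B peaks outside the PCGF1 regions were close to them, with 63% and 20. A GC content of at least 50% with an observed over expected CpG ratio of at least 0.6, the usual criteria of a CpG island, held for 71.8% of region windows, 69.1% of those RING1B windows and 43.5% of start windows. Regions of all 4 lists had a median of 25 CpG, those of Pcgf2/4-/- alone 22, of Pcgf6-/- alone 20, of wild-type alone 19 and the 10 regions of Pcgf3/5-/- alone 4.5. The Pcgf3/5-/- regions stand apart in this measure, and 3 of the 10 overlapped a Pcgf1-/- peak. Another of the 10, at Mid1, overlapped no Pcgf1-/- peak but lay in the stretch of X described above. The E-box CACGTG, whose 2 strands read the same, occurred in 6.03% of region windows and 6.76% of start windows, and in 10.1% of windows of wild-type RING1B peaks outside the PCGF1 regions. The motif TTCCCGC on either strand, the core bound by E2F factors, occurred in 7.55% of region windows and 5.78% of start windows. In windows of those RING1B peaks outside the PCGF1 regions it occurred in 8.82%.

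The strongest wild-type peak, at 17.9, lay in the stretch of X above, and the promoter peaks described next were chosen outside the Pcgf1-/- list. All 10 were called in the other 4 lists. At Plk5, of the polo-like kinase family, the fold was 12.8 in wild-type, 11.8 in Pcgf2/4-/-, 9.41 in Pcgf3/5-/- and 8.85 in Pcgf6-/-. At Pcdh8, a protocadherin gene, it was 12.8, 12.2, 9.21 and 9.60 in that order. At Neurog1, a proneural transcription factor gene, it was 11.4, 11.1, 9.41 and 9.17. Folds can be ranked only within their own list, and the rank of a site differed: Igf2 had 10.9 in wild-type but the highest fold of the Pcgf2/4-/- and Pcgf6-/- lists, 21.4 and 11.98, with 7.81 in Pcgf3/5-/-. The others of the 10 strongest were Adcy5 (adenylyl cyclase), Nrbp2, Dnajc22, Gadd45g (a growth arrest gene), Ntng2 (a netrin-G gene) and Wnk2 (a kinase), with wild-type folds of 10.1 to 11.4. All 10 overlapped a RING1B peak in all 5 lines, Pcgf1-/- included.

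The regions named next had the highest folds of their combination of lists. Among the strongest regions of Pcgf2/4-/- alone were Ptpru (fold 12.2, a receptor phosphatase gene), Pdgfra (11.1, a growth factor receptor gene), C2cd4d, Esrp1 (a splicing regulator) and Barx1 (a homeobox gene), all with RING1B in all 5 lines. All 5 also had a PCGF1 peak in Ring1a-/-_Ring1bfl cells, at folds of 8.40 to 15.1. Regions in Pcgf2/4-/- and Pcgf6-/- included Tchh (14.3 and 7.26), Kcnc4, Hmx3 and Sypl2. Regions of all 3 knockouts without wild-type included Prdm16, Foxl2, an ovarian forkhead gene, and Pdgfb. Those of Pcgf6-/- alone were led by 6430527G18Rik (10.1), Gnas (9.74, a G-protein subunit gene), Zfp36l2 (9.34), Pim3 (9.28, a kinase) and Gipc3 (8.96). Of these 5, 6430527G18Rik and Pim3 had no RING1B peak in any of the 5 lines. Wild-type alone held Gyltl1b (8.45), SNORD116, AC144621.1, Six3 and Sox4 regions, of which the first 2 had no RING1B peak in any line. Six3 also had other PCGF1 peaks in Pcgf2/4-/- (7.70) and Pcgf6-/- (5.99), so a region may be called in a single list while its gene has peaks in others.

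Among 40 annotated developmental regulators, 17 had a wild-type PCGF1 promoter peak, 27 a Pcgf2/4-/- peak, 31 a Pcgf6-/- peak and 3 a Pcgf3/5-/- peak. Over all 22380 protein-coding genes the shares were 2.47%, 5.51%, 9.79% and 0.755%. RING1B was called at 36 of the 40 in wild-type, against 15.1% of all coding genes. Lhx2 (a LIM homeobox gene), Neurog1 and Neurog2 were the 3 with a peak in all 4 lists. Neurog2 had a fold of 8.18 in wild-type, 20.5 in Pcgf2/4-/-, 7.25 in Pcgf3/5-/- and 8.43 in Pcgf6-/-. Cdx2, the trophoblast and posterior homeobox gene, had 9 in wild-type, 11.4 in Pcgf2/4-/- and 6.41 in Pcgf6-/- and no Pcgf3/5-/- peak. Pax7, Pax9, Eomes and Olig2 had peaks in Pcgf2/4-/- and Pcgf6-/- and none in wild-type.

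Of 23 Wnt ligands and antagonists, 8 had a peak in wild-type, 11 in Pcgf2/4-/-, 17 in Pcgf6-/- and 2 in Pcgf3/5-/-. The shares over all coding genes, 2.47%, 5.51%, 9.79% and 0.755%, had that order too. In wild-type, RING1B was called at 21 of the 23, against 15.1% of all coding genes. Wnt11 and Wnt7b were the 2 with a peak in all 4 lists, at folds of 9.82 and 8.18 in wild-type. Of 7 cyclin-dependent kinase inhibitor genes, Cdkn1c alone had a peak in all 4 (10.1, 12.1, 8.03 and 9.49 in wild-type, Pcgf2/4-/-, Pcgf3/5-/- and Pcgf6-/-), while Cdkn1a, Cdkn1b and Cdkn2c had a peak in Pcgf6-/- only among the 4.

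Of 20 germline genes, 0 had a PCGF1 peak in the 5 lists, where 0.755% to 9.79% of all coding genes had one in the lines with PCGF1. In the longer Ring1a-/-_Ring1bfl list, 5 of the 20 had one, against 31.7% of all coding genes. Of the 20, 18 had a wild-type PCGF6 peak and 15 a wild-type RING1B peak, against 5.77% and 15.1% of all coding genes. RING1B was called at 2 of the 20 in Pcgf6-/-, where 12.6% of all coding genes had it, and PCGF1 at 0 there. Of 17 pluripotency genes, 0 had a peak in wild-type, 1 in Pcgf2/4-/- (Esrrb) and 6 in Pcgf6-/-. These 6 were Esrrb (6.27), Sox2 (5.15), Klf2 (5.96), Prdm14 (5.67), Tbx3 (6.52) and Utf1 (6.98), all transcriptional regulators active in these cells. Esrrb had a wild-type RING1B peak and the other 5 did not, and of those 5 only Prdm14 had one in Pcgf6-/-. Of 15 genes of the PCGF1 complex and the PCGF family, 5 had a Pcgf6-/- peak (Pcgf1, Kdm2b, Yaf2, Pcgf2 and Bmi1) and 0 a peak in the other 4 lists.

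PCGF1 was found with RING1B of the same line at most sites, least often in Pcgf6-/-. A RING1B peak overlapped 689 of 736 wild-type PCGF1 peaks (93.6%, 91.6 to 95.2), 1610 of 1845 in Pcgf2/4-/- (87.3%, 85.7 to 88.7), 208 of 214 in Pcgf3/5-/- (97.2%, 94.0 to 98.7) and 2382 of 3228 in Pcgf6-/- (73.8%, 72.2 to 75.3). It also overlapped all 15 peaks of the Pcgf1-/- list. Against the wild-type RING1B list instead, the shares were 94.6% in Pcgf2/4-/-, 95.8% in Pcgf3/5-/- and 75.9% in Pcgf6-/-. The part of the RING1B lists' coverage in these shares was not tested. Peaks with a wild-type counterpart had RING1B more often than the rest: 92.9% against 69.5% in Pcgf6-/-, 95.7% against 83.9% in Pcgf2/4-/- and 98.5% against 95.1% in Pcgf3/5-/-. In Pcgf6-/- the share was 73.0% at promoters and 78.6% elsewhere.

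Seen from RING1B, PCGF1 covered more of its sites in the lines with long lists. A PCGF1 peak lay on 10.8% of 5454 RING1B peaks in wild-type, 26.98% of 5607 in Pcgf2/4-/-, 36.6% of 5563 in Pcgf6-/- and 3.29% of 5586 in Pcgf3/5-/-. RING1B peaks that carried PCGF1 were stronger than those that did not, with median folds of 17.97 against 8.23 in wild-type, 8.67 against 6.48 in Pcgf2/4-/-, 12.3 against 6.86 in Pcgf6-/- and 19.0 against 7.81 in Pcgf3/5-/-.

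The regions gained in the 2 long lists differed in what occupied them in wild-type cells. The 1218 regions of Pcgf2/4-/- absent from wild-type had a wild-type RING1B peak at 93.0% and a wild-type PCGF2 peak at 80.5%. The 2555 regions of Pcgf6-/- absent from wild-type had them at 70.6% and 54.5%, and a wild-type PCGF6 peak at 7.95%. Over promoters of all coding genes, the wild-type shares were 15.1% for RING1B, 12.7% for PCGF2 and 5.77% for PCGF6. The part of PCGF6 in these gains was not tested. In Pcgf2/4-/- cells, 62.5% of the regions gained there carried PCGF6, against 9.77% in wild-type, in a line whose PCGF6 list was also long. In Pcgf6-/- cells, 75.9% of the regions gained there carried PCGF2, whose list was also long in that line, at 7739 peaks. Over promoters of all coding genes, PCGF6 was called at 32.4% in Pcgf2/4-/- and PCGF2 at 19.5% in Pcgf6-/-. H3K4m3, the mark of active or poised starts, was present in wild-type at 92.1% of the Pcgf6-/- gains and 92.2% of the Pcgf2/4-/- gains. H3K27m3 was present in wild-type at 50.5% and 66.6% in that order. Over promoters of all coding genes, wild-type H3K4m3 was called at 66.2% and H3K27m3 at 12.8%.

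RING1B remained called at most wild-type PCGF1 regions that the Pcgf3/5-/- list lacked. Of these 527 regions, 90.5% had a RING1B peak in Pcgf3/5-/- cells and 91.7% in wild-type. In Pcgf1-/- cells, 87.8% of the 663 wild-type regions had a RING1B peak, against 93.4% in wild-type. The share of RING1B at wild-type regions lay at 90.5% in Pcgf2/4-/-, 92.2% in Pcgf3/5-/- and 91.1% in Pcgf6-/-. H2AK119Ub1 peaks overlapped 38.5% of these regions in wild-type, 97.1% in Pcgf2/4-/- and 99.8% in Pcgf3/5-/-, where that antibody's lists held 121944 and 128786 peaks against 1741 in wild-type. List length moves with those shares, and its part was not tested.

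**Figure D4:**
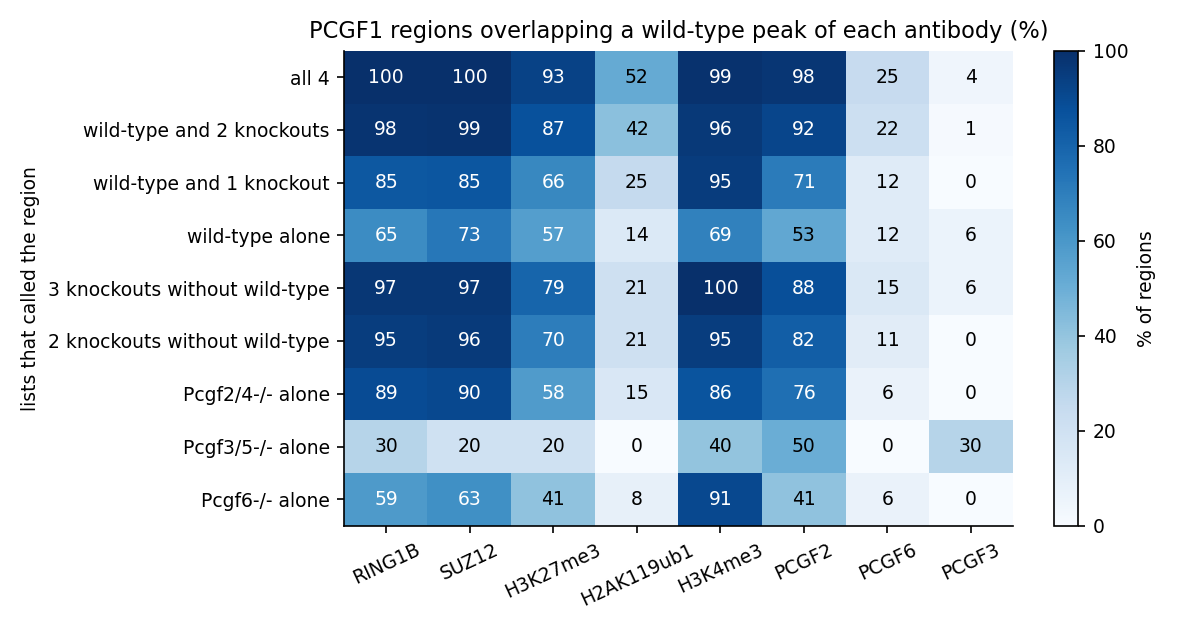
Each cell gives the percentage of PCGF1 regions (rows, grouped by the lists that called them) that overlap a wild-type peak of the antibody named below its column. RING1B was called at 100% of regions of all 4 lists and 58.8% of regions of Pcgf6-/- alone, and PCGF2 at 97.6% and 40.7%.

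The messenger RNA of the same lines was counted in 2 libraries each, with 2147968 to 7848161 counts per library over all 14 libraries of the series. The labels do not say whether replicates came from separate cultures, so p-values measure the spread between these libraries. The 2 wild-type libraries differed by less than sampling noise (chi-square per degree of freedom 0.951, against 1.19 to 21.3 in the other pairs) and may be 1 sample. Counts of genes are therefore given with them as 2 libraries and, in a fit chosen after seeing the data, summed to 1. All 18 stem cell markers had enough reads to be tested, with summed levels in these lines of 2889 to 5129 CPM (counts relative to the TMM-scaled library size). Pcgf1 had 66.1 and 61.0 CPM in wild-type and 4.81 and 3.20 CPM in Pcgf1-/-, and fell by 3.90 on the log2 scale (SE 0.20, edgeR adjusted p = 2.42e-08). Pcgf6 had 36.2 and 34.3 CPM in wild-type and 0 reads in both Pcgf6-/- libraries, at least 171-fold lower with a floor of 3 counts over the group. Transcripts of Pcgf2 (log2 fold change 0.10, SE 0.13) and Bmi1 (-0.18, SE 0.19) were not called changed in Pcgf2/4-/-, nor Pcgf3 in Pcgf3/5-/- (-0.40, SE 0.23), while Pcgf5 fell there by 1.22 on the log2 scale (SE 0.23, edgeR adjusted p = 0.00175). The transcript does not check a small edit, and the labels name a protein screen.

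Over these lines Pcgf1 mRNA had another order than the size of the lists, and its part in that size was not tested. It had 88.4 and 66.7 CPM in Pcgf2/4-/- (log2 fold change 0.25, SE 0.14, edgeR adjusted p = 0.227), 55.6 and 58.1 CPM in Pcgf3/5-/- (-0.16, SE 0.14, 0.492) and 49.55 and 47.2 CPM in Pcgf6-/- (-0.39, SE 0.14, 0.0334). In Pcgf6-/-, the line with the longest list, its 2 libraries lay below both wild-type libraries. Kdm2b had 205 and 205 CPM in wild-type, 187 and 198 in Pcgf2/4-/-, 146 and 132 in Pcgf3/5-/- and 130 and 122 in Pcgf6-/-. It fell by 0.56 on the log2 scale in Pcgf3/5-/- (SE 0.12, edgeR adjusted p = 0.00383) and by 0.70 in Pcgf6-/- (SE 0.12, 0.000196). These are RNA levels, and the amount of PCGF1 protein is not given in the sources used here.

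Genes with a PCGF1 peak at their promoter were weakly expressed. Of 671 genes with a wild-type promoter peak, 358 (53.4%) had enough reads to be tested. Per kilobase of exon, their median wild-type level was 0.842 CPM, against 7.44 CPM for 14341 of the 15464 tested genes with an annotated length. For the 1312 tested genes gained in Pcgf6-/- it was 1.96 CPM and for the 566 gained in Pcgf2/4-/- 0.859 CPM. The genes gained without PCGF6 were the more expressed of the 2 sets, on this scale, in wild-type cells.

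In Pcgf1-/-, 84 of the 358 tested bound genes rose (23.5%, against 13.9% of all 15464 tested genes) and 66 fell (18.4%, against 18.4%). With the wild-type libraries summed, 72 rose and 53 fell. Their median log2 change was 0.00, against -0.05 over all genes. Genes without a wild-type peak rose about as often: 140 of the 566 bound in Pcgf2/4-/- and not in wild-type (24.7%) and 296 of the 1312 bound in Pcgf6-/- and not in wild-type (22.6%). Filtering on read number keeps genes that rise in some line, so these shares describe the tested genes only. Leaving out Pcgf1-/- replicate 1 gave 52 raised genes, with 1287 in place of 2146 over all genes, and leaving out replicate 2 gave 39 lowered, with 1537 in place of 2853.

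The other lines were compared with the same wild-type libraries, and differences between lines were not tested. In Pcgf2/4-/-, 34 rose (9.5%, against 8.10% of all tested) and 87 fell (24.3%, against 13.5%), with a median log2 change of -0.34 against 0.00. With the wild-type libraries summed, 25 rose and 76 fell. The libraries of Pcgf2/4-/- differed most, at 2764111 and 7547984 counts. Without its replicate 1 the median was -0.12 and 57 genes rose, and without replicate 2 it was -0.79 and 19 rose. The lowered counts were 78 and 84. Over all genes these fits raised 1919 and 1965 in place of 1253 and lowered 1588 and 2739 in place of 2087. In Pcgf3/5-/-, 60 rose (16.8%, against 11.1%) and 41 fell (11.5%, against 10.4%), or 51 and 31 with the wild-type libraries summed. Without Pcgf3/5-/- replicate 1, 33 rose (863 in place of 1722 over all genes), and without its replicate 2, 20 fell (713 in place of 1611). In Pcgf6-/-, 109 rose (30.4%, against 27.8%) and 72 fell (20.1%, against 18.6%), or 108 and 64 summed. Without Pcgf6-/- replicate 2, 45 fell (1944 in place of 2879 over all genes). Shares in Pcgf6-/- were close to those of all genes.

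Leaving out either wild-type library lowered several of these counts. Without wild-type replicate 1 or 2, lowered genes in Pcgf1-/- were 42 and 38, raised genes in Pcgf2/4-/- 17 and 22, and raised and lowered genes in Pcgf3/5-/- 39 and 37, and 26 and 24. Over all genes the same 4 counts were 1703 and 1747, 597 and 610, 961 and 845, and 751 and 757.

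Genes where a PCGF1 peak appeared did not all fall. Tested genes with a Pcgf2/4-/- peak and no wild-type peak numbered 566, with a median log2 change of -0.36 in Pcgf2/4-/-. Of these, 43 rose there (7.60%, against 8.10% of all tested genes) and 137 fell (24.2%, against 13.5%). These shares were near those of the genes bound already in wild-type. Of 1312 with a Pcgf6-/- peak and no wild-type peak, 401 rose (30.6%) and 367 fell (28.0%) in Pcgf6-/-, median 0.01. The lowered share there was above the 18.6% of all genes, and the raised share was also above its 27.8%. Of 273 tested genes whose wild-type peak was not called in Pcgf3/5-/-, 39 rose (14.3%) and 30 fell (10.99%) in Pcgf3/5-/-. Of the 85 that kept a peak, 21 rose (24.7%) and 11 fell (12.9%). Over all tested genes, 11.1% rose and 10.4% fell in Pcgf3/5-/-.

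Single bound genes moved in opposite directions between lines. Hoxa10, a homeobox gene of the posterior axis, had 3.71 and 4.22 CPM in wild-type, 24.7 and 19.7 in Pcgf1-/-, 25.1 and 26.7 in Pcgf2/4-/-, 7.75 and 6.14 in Pcgf3/5-/- and 0.249 and 0.613 in Pcgf6-/-. All Pcgf1-/- and Pcgf2/4-/- libraries lay above and both Pcgf6-/- libraries below wild-type. Its log2 change was 2.497 (SE 0.24, edgeR adjusted p = 6.37e-06) in Pcgf1-/-, 2.71 (SE 0.25, 1.13e-05) in Pcgf2/4-/- and -3.19 (SE 0.48, 8.14e-05) in Pcgf6-/-. Its PCGF1 fold was 7.91 in wild-type, 9.20 in Pcgf2/4-/- and 6.62 in Pcgf6-/-, so a peak was called where the gene rose and where it fell.

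Cdx2 had 71.1 and 77.8 CPM in wild-type, 24.2 and 21.3 in Pcgf1-/-, 83.4 and 99.7 in Pcgf2/4-/-, 112 and 102 in Pcgf3/5-/- and 4.61 and 6.13 in Pcgf6-/-. It was lowest in Pcgf6-/-, with a log2 change of -3.80 (SE 0.16, edgeR adjusted p = 4.52e-10). Gata3, a zinc-finger regulator of trophoblast and T cells, had 12.7 and 13.8 CPM in wild-type and 3.83 and 2.51 in Pcgf1-/-, a log2 change of -1.97 (SE 0.23, edgeR adjusted p = 3.08e-05). In Pcgf6-/- it had 45.2 and 37.8 CPM, above both wild-type libraries. Spry4, an inhibitor of receptor tyrosine kinase signalling, had 99.7 and 95.9 CPM in wild-type, 27.2 and 21.9 in Pcgf1-/- and 9.09 and 7.20 in Pcgf6-/-. It fell by 1.97 on the log2 scale in Pcgf1-/- (SE 0.20, edgeR adjusted p = 7.38e-06) and by 3.57 in Pcgf6-/- (SE 0.22, 1.80e-08).

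Some genes with a PCGF1 site rose in Pcgf6-/-. Of the 10 strongest wild-type sites named above, Igf2 and Gadd45g rose there and Plk5 fell. Plk5 had 2.85 and 2.39 CPM in wild-type and 0 and 0.919 in Pcgf6-/- (log2 change -2.60, SE 0.75, edgeR adjusted p = 0.0104). Neurog1, Adcy5, Nrbp2, Dnajc22 and Wnk2 were not called changed in Pcgf6-/-, and Pcdh8 and Ntng2 were not tested. Igf2 had 0.571 and 1.13 CPM in wild-type, 0 to 1.68 CPM in the Pcgf1-/-, Pcgf2/4-/- and Pcgf3/5-/- libraries, and 21.7 and 21.1 in Pcgf6-/- (log2 change 4.62, SE 0.29, edgeR adjusted p = 1.72e-08). Its peak was the strongest of the Pcgf6-/- list. Gadd45g had 1.71 and 2.39 CPM in wild-type and 27.5 and 24.1 in Pcgf6-/- (3.64, SE 0.23, edgeR adjusted p = 1.99e-08). Its libraries of the other 3 knockouts ranged from 0.894 to 2.54 CPM. Grhl2, an epithelial transcription factor gene, had 2.57 and 2.67 CPM in wild-type, 11.1 and 10.2 in Pcgf3/5-/- and 68.7 and 66.3 in Pcgf6-/-. It rose by 2.02 (SE 0.22, edgeR adjusted p = 2.26e-05) and 4.68 (SE 0.18, 3.56e-10) on the log2 scale. Jun had 6.85 and 5.91 CPM in wild-type and 63.9 and 57.6 in Pcgf6-/- (3.25, SE 0.29, edgeR adjusted p = 6.94e-07).

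The genes that changed most in Pcgf1-/- otherwise were Tmem63a (log2 change 2.35), Serinc2 (2.31), Kif17 (2.29, a kinesin) and Msx2 (2.23, a homeobox gene) upwards, and Parvb (-2.07), G530011O06Rik (-1.91) and Shisa7 (-1.84) downwards. Dnajc22, among the strongest wild-type sites, had 10.1 and 9.14 CPM in wild-type, 36.6 and 31.5 in Pcgf1-/- and 22.5 and 19.7 in Pcgf3/5-/-. It rose by 1.83 and 1.14 on the log2 scale, and had 10.5 and 13.4 CPM in Pcgf2/4-/- and 10.2 and 9.04 in Pcgf6-/-. G530011O06Rik also fell in Pcgf3/5-/-, by 1.53, and a peak of the Pcgf1-/- list also lay at its promoter.

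In Pcgf2/4-/-, Sox21 (log2 change 1.87, an HMG-box regulator) and Car11 (1.54) rose. Jun (1.26, 7.12 and 19.4 CPM in its 2 libraries) and Adamts15 (1.21) passed the threshold there, with edgeR adjusted p of 0.0164 and 0.0212, and did not with the wild-type libraries summed (0.0517 and 0.0557). Pfkfb3, a regulator of glycolysis, had 33.2 and 35.4 CPM in wild-type and 4.19 and 4.98 in Pcgf2/4-/-, and fell by 2.84. Arhgdig had 144 reads in wild-type and 3 in Pcgf2/4-/-, 34.7 times fewer per library size (95% counting interval 11.6 to 170). St8sia5 had 164 and 9 reads (13.2 times, 6.78 to 29.3) and Kif26a 46 and 3 (11.1 times, 3.57 to 55.8). Bmp8b fell by 2.88.

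In Pcgf3/5-/-, Nefm, a neurofilament gene, had 19.5 and 20.0 CPM in wild-type and 72.1 and 68.5 in Pcgf3/5-/-, a rise of 1.83 on the log2 scale (SE 0.17, edgeR adjusted p = 5.82e-06). Adamtsl5 (2.39), Adra2b (1.99) and Vldlr (1.93, a lipoprotein receptor) also rose. Epas1 (-2.003, a hypoxia factor) and Parp10 (-1.87) fell. Nfkb2 (-1.54, edgeR adjusted p = 0.00661) and Dsp (-1.29, 0.0374) passed the threshold and lost it when a library was left out (0.0537 for Nfkb2 without Pcgf3/5-/- replicate 2, and 0.189 for Dsp without replicate 1). In Pcgf6-/-, Mdga1 (-3.24) and Lef1 (-3.06, a Wnt pathway transcription factor) fell. Lef1 had 67.2 and 66.1 CPM in wild-type and 8.09 and 7.81 in Pcgf6-/-.

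**Figure D5:**
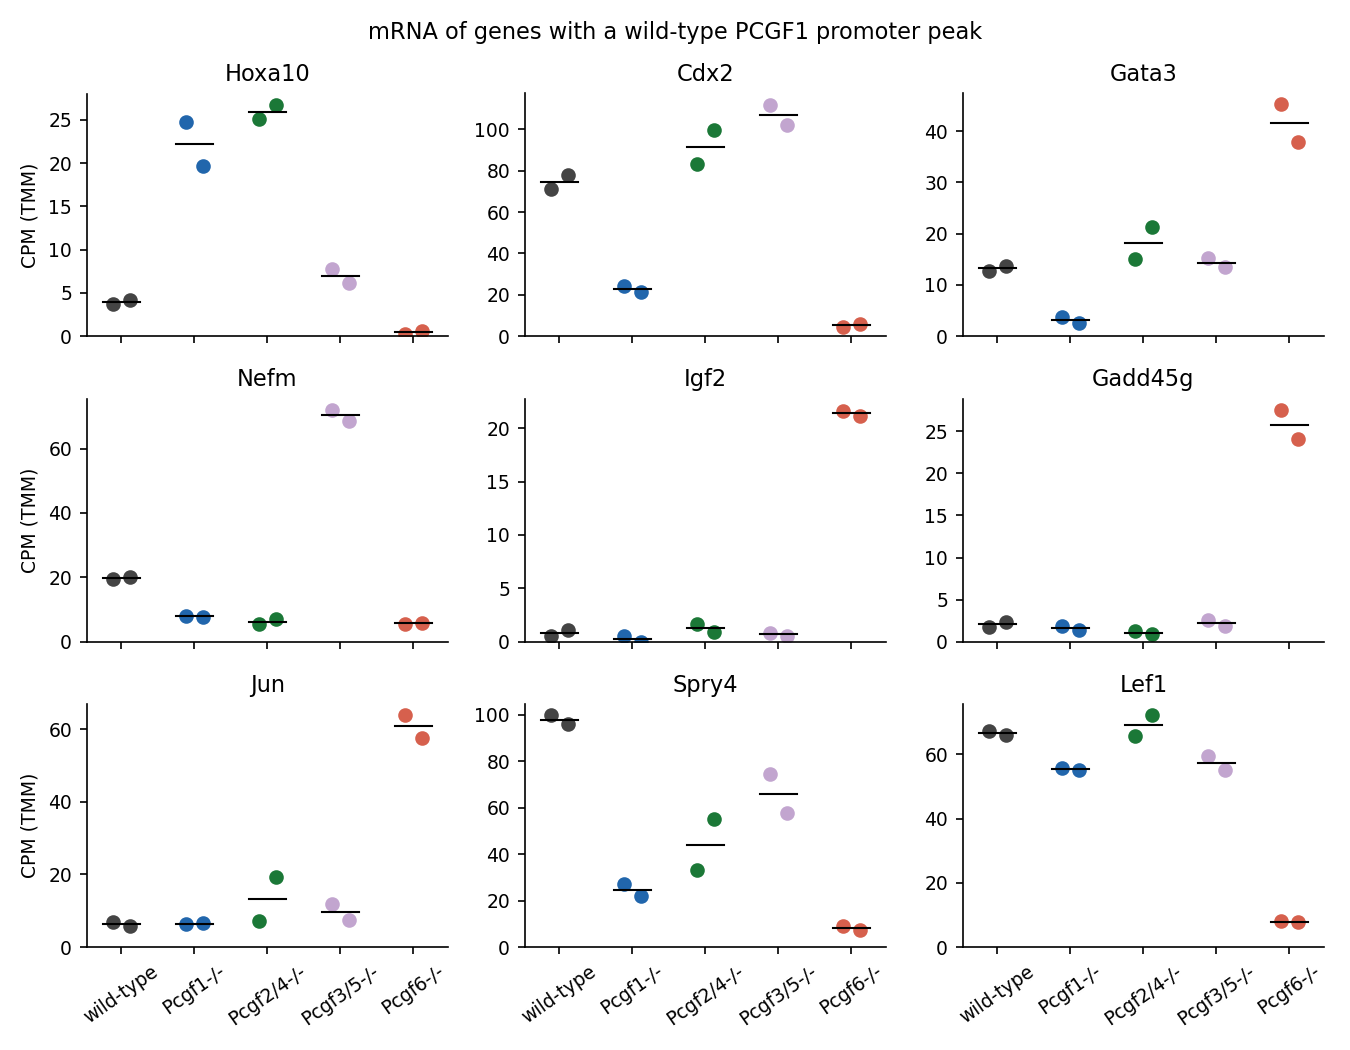
Points give TMM-scaled CPM (linear axis) of each of 2 libraries per line, and bars their mean, for 9 genes with a wild-type PCGF1 promoter peak. Hoxa10 was above wild-type in Pcgf1-/- and Pcgf2/4-/- and below it in Pcgf6-/-, while both Pcgf6-/- libraries lay above all others for Igf2 and Gadd45g.

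Markers of other cell types moved in the same lines, and their part in these results was not tested. Of 6 primitive endoderm markers, the 3 tested summed to 1.13 to 1.85 CPM in wild-type and 39.4 to 43.7 CPM in Pcgf6-/-, where 1 rose. Of 6 two-cell-like markers, the 4 tested summed to 83.8 to 86.0 CPM in wild-type and 453 to 499 in Pcgf6-/- (4 of 4 rose). They were lower in the other 3 knockouts, at 3.20 to 9.84 in Pcgf1-/- (4 of 4 fell). In Pcgf3/5-/- they summed to 11.6 to 11.9 CPM (3 of 4 fell) and in Pcgf2/4-/- to 43.1 to 45.4 (3 of 4 fell). Of 6 neural markers, the 3 tested summed to 85.9 to 87.1 CPM in wild-type and 9.21 to 15.2 in Pcgf2/4-/-, where 2 fell. The 6 trophoblast markers, which include Cdx2 and Gata3, summed to 116 to 121 CPM in wild-type and 83.8 to 91.1 in Pcgf6-/-. There 3 of 6 tested rose and 2 fell. Their sum was 65.8 to 78.2 CPM in Pcgf1-/- (1 rose and 2 fell) and 147 to 165 in Pcgf3/5-/- (2 rose and 2 fell). Of 6 fibroblast markers, the 4 tested summed to 221 to 230 CPM in wild-type and to 104 to 109 in Pcgf6-/-, where 3 rose and 1 fell. Their sum was also lower in Pcgf1-/- (134 to 167 CPM) and Pcgf2/4-/- (133 to 159 CPM). In bulk RNA, a different number of cells of a type and a different amount of RNA per cell cannot be told apart.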

How the data were processed

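PCGF1 peaks came from 1 list per line, called by the authors on single samples. MACS2 2.1.1, Bowtie 1.2.2, TopHat2 2.1.1, HTSeq 0.7.2 and mm9 are named in the submitters' processing notes, without roles. The deposited columns used were the fold enrichment (a ratio over background) and the −log10 p and q values, in the narrowPeak layout, per the file headers. The lowest −log10 p of every PCGF1 list was about 10. The sources used here give neither the read depth nor the control sample of a list. All PCGF1 peaks lay on NCBIM37 chromosomes (0 outside), and genes are from GENCODE M1. Peaks overlapped where they shared at least 1 bp, a promoter peak came within 2.5 kb of an annotated start, and shares carry 95% Wilson intervals. No test compares peak lists.

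RNA counts are whole reads per gene symbol as the authors deposited them, and whether counting used strand is not given in the sources used here, so overlapping genes cannot be told apart. Counts of all 14 libraries (7 groups of 2) entered 1 edgeR 4.0.16 quasi-likelihood fit in R 4.3.3, with TMM factors, filterByExpr (15464 of 23377 genes kept) and Benjamini-Hochberg adjustment at 0.05. The fit was tested on simulated data. CPM per kilobase divides by merged exon length. The number of unmapped columns was 0. Intervals and floors cover counting error only.

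Named are the genes at the 10 strongest wild-type promoter peaks outside the Pcgf1-/- list, at the 5 strongest promoter regions of each combination of lists, members of the gene lists with a peak, and the 5 raised and 5 lowered bound genes of largest log2 change in each line (adjusted p below 0.05, mean log2 CPM of at least 2). The targeted genes are given as a check of the labels. Printed windows skip untranslated sequence and 1 chromosome. Some genes and windows that these rules choose are not reported here. The members and lists were chosen with earlier results of these data known. Alternatives changed the overlap rule, the promoter distance, the peak threshold, the scaling, filter, tool and libraries of the expression fit.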

Additional observations from a re-analysis of the deposited data

How the results depend on the processing

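Of 222 recomputed values, 148 moved by less than their error, or for counts by less than 1.5 times, and 74 moved further. The number of peaks with a −log10 p of at least 15, a threshold chosen after seeing the data, was 125 in wild-type, 632 in Pcgf2/4-/-, 30 in Pcgf3/5-/-, 813 in Pcgf6-/- and 6 in Pcgf1-/-, in the same order as the full lists. Merging peaks up to 1 kb apart left 8 in Pcgf1-/-. Wild-type peaks in Pcgf2/4-/- came to 82.1% within 1 kb, 95.2% at −log10 p of 15 and 90.2% for the strongest 214 (the last also chosen after seeing the data), those in Pcgf6-/- to 89.8%, 91.2% and 91.1%, and those in Pcgf3/5-/- to 24.5%, 41.6% and 34.1%, or 15.9% with at least 50% of a peak covered. Those in Pcgf1-/- came to 8.0% at −log10 p of 15 and 4.67% for the strongest 214. In the other direction, Pcgf2/4-/- peaks in wild-type came to 14.4% with 50% covered, 37.5% within 1 kb, 50.9% at 15 and 68.2% for the strongest. Pcgf6-/- peaks came to 7.16%, 23.9%, 40.6% and 60.7%. Pcgf3/5-/- peaks came to 55.1%, 74.3% and 90.0%, without the last setting.

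Promoter shares with starts within 1 kb were 74.7% in wild-type, 79.6% in Pcgf2/4-/-, 79.9% in Pcgf3/5-/- and 78.0% in Pcgf6-/-. Within 5 kb they were 93.5%, 92.1%, 95.8% and 90.8%. With protein-coding starts only they were 83.3% in wild-type, 85.0% in Pcgf2/4-/- and 82.9% in Pcgf6-/-. At −log10 p of 15 they were 91.3% in Pcgf2/4-/-, 96.7% in Pcgf3/5-/-, 88.8% in Pcgf6-/- and 100% in Pcgf1-/-, and for the strongest 214, 93.9% in Pcgf2/4-/- and 89.3% in Pcgf6-/-. RING1B overlap at 15 was 96.8% in wild-type, 96.2% in Pcgf2/4-/-, 100% in Pcgf3/5-/- and 86.2% in Pcgf6-/-. In Pcgf2/4-/- it was 84.9% with 50% covered, 92.7% within 1 kb and 98.6% for the strongest 214, and in Pcgf6-/- 71.8%, 76.7% and 89.3%, the lowest of the 4 lines in each setting.

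Leaving out 1 library gave 52 to 89 raised and 38 to 45 lowered bound genes in Pcgf1-/-, 17 to 57 raised and 62 to 84 lowered in Pcgf2/4-/-, 33 to 59 raised and 20 to 34 lowered in Pcgf3/5-/-, and 87 to 95 raised and 45 to 54 lowered in Pcgf6-/-. A lone library was assumed to vary like the other groups. Fits on 2 groups only gave 39 lowered in Pcgf1-/- and 10 raised and 48 lowered in Pcgf2/4-/-, where calls over all genes fell from 1253 raised and 2087 lowered to 440 and 706. The cause was not tested. Over all genes, Pcgf6-/- had 5376 raised and 4373 lowered genes in that fit, against 4306 and 2879. DESeq2, RLE factors and no filter on low counts moved no count of bound genes by 1.5 times. Replicate numbers did not pair the samples (correlations of deviations 0.06, -0.02, 0.03 and 0.03), and a replicate block gave 78 raised and 59 lowered in Pcgf1-/-, 29 and 82 in Pcgf2/4-/-, 56 and 37 in Pcgf3/5-/-, and 109 and 71 in Pcgf6-/-. Of 40 genes named for their change in a line, 36 passed the threshold in all 10 expression settings, and the others were Jun and Adamts15 in Pcgf2/4-/- and Nfkb2 and Dsp in Pcgf3/5-/-.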

Other observations

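Besides Ring1a-/-_Ring1bfl, the PCGF1 antibody was used in 2 other lines without Polycomb enzymes. In Ezh1/2-/- cells, which lack the methyltransferases of Polycomb repressive complex 2, the list held 4150 peaks with a median fold of 5.93, of which 81.5% lay at promoters. It overlapped 90.4% of wild-type peaks and 70.9% of Pcgf6-/- peaks. In Ring1a/b-/- cells, which lack both partner enzymes, the list held 1091 peaks with a median fold of 5.47, and 92.2% lay at promoters. It overlapped 23.0% of wild-type peaks and 47.6% of the regions called in all 4 lists. No comparison between these lists was tested.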
